A study of Danio rerio with 3 samples.

Results

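A set of 205 brain barcodes was picked out by transcripts of excitatory neuron transcription factors, with its members selected on the counts themselves. A member had at least 100 detected genes and a transcript of at least 2 of the 6 genes eomesa, tbr1b, neurod2, neurod6a, neurod6b and zbtb18. It also had no more than 1 transcript summed over slc17a6a and slc17a6b, and no more than 1 over gad1b, gad2 and slc32a1. The libraries labelled Ctrl, Zn10 and Zn15 gave 81, 50 and 74 members, out of 11207 barcodes with at least 100 genes and 13683 in all.

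Zebrafish (Danio rerio) brain, labelled as single cells, was profiled with the 10x Genomics droplet method, which labels every droplet with a barcode and counts transcripts by their unique molecular identifiers (UMIs). The study set out to evaluate zinc, and each of its treatments, Ctrl, Zn10 and Zn15, had 1 library. No source used here gives the meaning of the numbers in Zn10 and Zn15, how or for how long fish were exposed, their strain or age, or how many went into a library. With 1 library per treatment nothing was tested between treatments, and every 95% interval below covers counting error only (Clopper-Pearson for a share, exact Poisson for a level, exact conditional binomial for a ratio).

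Eomes and Tbr1 are T-box transcription factors of excitatory neurons of the dorsal telencephalon (pallium) in the mouse, and Neurod2 and Neurod6 are basic helix-loop-helix factors switched on as such neurons leave the cell cycle. Zbtb18 is a zinc finger repressor needed for excitatory cortical neurons in the mouse. None of them is private to the pallium: mouse Eomes also marks unipolar brush cells, and Neurod2 granule cells, of the cerebellum. The vesicular glutamate transporters encoded by slc17a6a and slc17a6b, and the GABA synthesis and transport genes gad1b, gad2 and slc32a1, mark the transmitter classes that the selection set aside.

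Depth was low in all libraries. The members of Ctrl, Zn10 and Zn15 held 23086, 17584 and 24164 UMIs, with medians of 246, 334.5 and 289 UMIs per barcode, beside 271, 301 and 296 over all barcodes with at least 100 genes. The nuclear RNA malat1 took 21.8% to 25.5% of the members' UMIs and genes with mitochondrial symbols 0.0993% to 0.178%, to which a further feature listed under the mitochondrial genome's accession added 41, 10 and 29 UMIs in Ctrl, Zn10 and Zn15. Any pair of libraries shared 4 to 8 barcode sequences, and no member barcode was shared. Levels are given as counts per 1000000 UMIs (CPM) of the barcodes summed, and a gene at 0 is given a floor of 3 UMIs, which is 129.9, 170.6 and 124.2 CPM in the members of Ctrl, Zn10 and Zn15.

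The members were chosen by the following genes, whose values are therefore a description. zbtb18 dominated, with 509 UMIs in 198 of the 205 members. Of the others, neurod6b was seen in 63 members, neurod2 in 53, eomesa in 52, neurod6a in 39 and tbr1b in 28, mostly as 1 UMI per barcode. In 178 members zbtb18 stood with exactly 1 of the other 5 genes, and 27 members held at least 2 of those 5. Just inside the limit lay 184 members with exactly 2 marker genes, 19 had 3 and 2 had 4. Just outside it lay 2668 barcodes with 1 marker gene, and 14 barcodes with 2 or more that were left out, all of them for slc17a6 UMIs. Of the excluding genes, slc17a6b still gave 34 UMIs in 34 members, while slc17a6a, gad1b and gad2 gave 1 UMI each and slc32a1 none.

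Across all barcodes with at least 100 genes, zbtb18 was seen more often beside each of the other 5 markers than without them. These are genes of the selection, so the shares are a description, with barcodes of the 3 libraries pooled. zbtb18 was detected in 57.7% of the 97 barcodes with eomesa (interval 47.3% to 67.7%), 52.7% of the 55 with tbr1b (38.8% to 66.3%), 68.4% of the 79 with neurod2 (56.9% to 78.4%), 55.6% of the 63 with neurod6a (42.5% to 68.1%) and 57.7% of the 104 with neurod6b (47.6% to 67.3%). It was detected in 23.3% of the 10841 barcodes with none of the 5 (22.5% to 24.1%), at a median depth of 288 UMIs against 232 to 314 in the marker groups. As a guide to free RNA, zbtb18 was found in 4.89% of 1269 barcodes with oligodendrocyte markers (median 285 UMIs) and 3.96% of 556 with microglia markers (median 440 UMIs). Barcodes with at least 2 UMIs of the GABA genes carried it in 8.92% of 370, and those with at least 2 UMIs of slc17a6 in 29.0% of 386. zbtb18 alone therefore reached far beyond the members, who made up 7.25% of the 2732 barcodes with it.

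**Figure D1:**
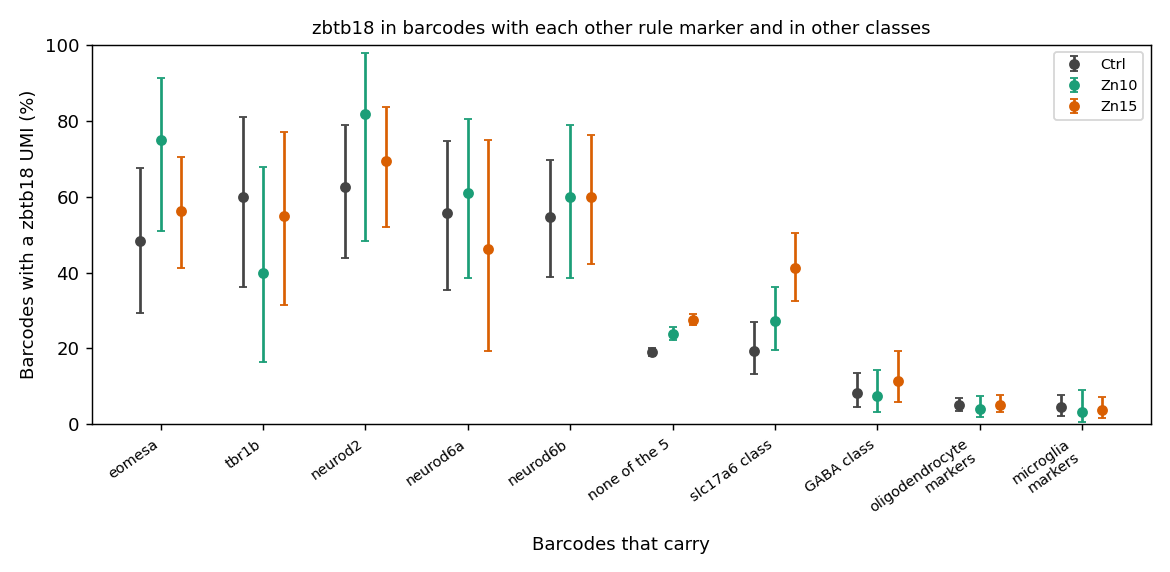
Share of barcodes with a zbtb18 UMI (%, vertical axis) among barcodes that carry each of the other 5 marker genes, none of them, or markers of another class, in each library, with Clopper-Pearson intervals. Over the libraries the 5 marker groups lie between 40.0% and 81.8%, and barcodes with oligodendrocyte or microglia markers between 3.23% and 5.19%.

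The pallial name could be checked in few of the members. Of 35 measured transcription factor genes of the telencephalon and pallium that the selection did not use, 16 had a UMI in the members and 19 had none, among them tbr1a, emx1 and fezf2. foxg1a, which specifies the telencephalon, gave 2, 5 and 2 UMIs, and the dorsal factor emx3 gave 2, 4 and 1. Both were scarce in every library. foxg1a stood at 82.8 to 284 CPM in the members against 23.5 to 25.7 CPM in the other barcodes, and emx3 at 41.4 to 227 CPM against 3.35 to 10.6 CPM. The interval of 2 UMIs was 10.5 to 313 CPM in Ctrl and 10.0 to 299 CPM in Zn15. That of 1 UMI in Zn15 was 1.05 to 231 CPM. foxg1a in Ctrl and Zn15, and emx3 in Zn15, were therefore within counting error of the other barcodes. bhlhe22, a factor of forebrain excitatory neurons in the mouse, gave 5, 4 and 8 UMIs, or 217, 227 and 331 CPM against 11.2 to 30.4 CPM in the other barcodes. The vesicular glutamate transporter slc17a7a, abundant in the mammalian cortex, gave 0, 2 and 1 UMIs.

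Factors of other brain regions were also looked for. None of the 15 subpallial genes measured, dlx2a, dlx5a and isl1 included, had a UMI in the members. The upper bounds of that zero, 159.8, 209.8 and 152.7 CPM, lie above the 115, 139 and 94.6 CPM of the other barcodes. No deficit was therefore detectable within any 1 library, and the 3 libraries were not combined for this list. The GABA barcodes that the selection set aside held 399 to 479 CPM. tbx21, of olfactory bulb projection neurons, was also at 0. Some markers of cerebellar granule and unipolar brush neurons were as common as the forebrain factors just named, and zic1 was more common. zic1 gave 9, 15 and 19 UMIs, zic2a 6, 7 and 7, pax6a 6, 5 and 2, and zic4 7, 2 and 3. Of 2 of these markers with enough counts to compare, 1, zic1, was at least 2-fold higher in the members than in the other barcodes. Of the 23 measured, 7 had no UMI in the members, atoh1a, atoh1c, gabra6a and cadps2 among them. Summed, the cerebellar list stood at 1689, 2275 and 2111 CPM in the members against 1107, 1468 and 1364 CPM in the other barcodes. The telencephalic and pallial list stood further above them, at 3292, 3185 and 3393 CPM against 1317, 1399 and 1178 CPM. It includes neurod1, nr2f2 and etv1, which are not private to the forebrain. neurod1 and nr2f2 gave 51 and 32 of its 214 UMIs in the members. etv1 gave 17 in the members with neurod2, 10 in those with eomesa or tbr1b and 11 in those with neurod6a or neurod6b. These subsets share some members. The level of this list is therefore not by itself a measure of forebrain identity. The midbrain list came to 1, 4 and 4 UMIs and the habenula list to 3, 4 and 0. The thalamus and hypothalamus list came to 5, 2 and 1. Each of these sums was lower in the members than in the other barcodes of every library. Some of these deficits were within counting error: midbrain in Zn10 and Zn15, and habenula and thalamus and hypothalamus in Ctrl. The hindbrain list gave 2, 2 and 0 UMIs, within counting error of the other barcodes in every library. With genes of the forebrain and cerebellar lists both present, the members are called here by the genes that chose them.

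Oligodendrocyte and microglia transcripts sat in few members, and radial glia transcripts in more of them. The radial glia list gave 29, 17 and 39 UMIs (1256, 967 and 1614 CPM) in 55 members, against 4950.2 to 6526 CPM in the other barcodes, and most were of glula, a glutamine synthetase gene. The oligodendrocyte list summed to 13, 3 and 49 UMIs (563, 171 and 2028 CPM), against 3954 to 8118 CPM in the other barcodes. The microglia list summed to 4, 0 and 7 UMIs, with mpeg1.1, csf1ra, p2ry12 and c1qa at 0. In 5 members, 2 of Ctrl and 3 of Zn15, at least 4 UMIs of either list or any UMI of exorh, an opsin gene of the pineal, were found. A single Zn15 barcode of 720 UMIs held 40 exorh and 32 oligodendrocyte-list UMIs. No doublet caller was run, and an alternative without these 5 barcodes was computed.

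Beside the other barcodes of the same library, the members were rich in transcripts of neuronal differentiation. Ratios were taken within each library and averaged as log2 over the 3 libraries. Of 573 genes compared outside the selection, 76 were at least 2-fold higher in the members (13.3%) and 66 at least 2-fold lower (11.5%), and the median gene stood at 0.24 log2. In all 3 libraries separately, 34 genes were at least 2-fold higher and 38 at least 2-fold lower. A gene was compared if each library had at least 5 UMIs of it in the members, or at least 5 expected there from the other barcodes. Genes scarce elsewhere thus entered only where high in the members, as zeb2b did with 2.01, 2.12 and 2.22 UMIs expected. The filter therefore has a part in these shares and in the median. The members were picked by genes of the same barcodes, so these ratios are a description with no test.

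Other transcription factors led the higher genes. neurod1, a sister gene of the selecting neurod genes, stood at 996, 626 and 704 CPM in the members of Ctrl, Zn10 and Zn15 against 124, 169.8 and 186 CPM in the other barcodes (mean log2 ratio 2.27, range 1.88 to 3.01). It had 23, 11 and 17 UMIs in the members, where 2.86, 2.99 and 4.51 were expected from the other barcodes. zeb2b, a zinc finger homeobox repressor, had a mean log2 ratio of 2.30 from 6, 17 and 11 UMIs, and zfpm2a, a cofactor of GATA factors, 2.27 from 8, 9 and 5 UMIs. nhlh2, a helix-loop-helix factor of young neurons, reached 2.13 from 15, 7 and 30 UMIs. znf536, a zinc finger repressor, stood at 823, 1081 and 331 CPM against 152 to 207 CPM. tshz3b, a teashirt zinc finger gene, gave 7, 9 and 15 UMIs, and nr2f2, a nuclear receptor gene, followed at 1.48.

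Several cytoskeletal and signalling genes were also among the 25, as grouped after their values were seen. tubb5, a beta-tubulin gene of young neurons, stood at 866, 2502 and 1366 CPM against 326, 454 and 387 CPM. maptb, which encodes tau, stood at 996, 2047 and 786 CPM against 311 to 420 CPM. The doublecortin-like kinase gene dclk1b and the growth cone gene gap43 had mean log2 ratios of 1.61 and 1.56. kidins220a, a scaffold of neurotrophin receptors, and r3hdm1 were among the steadiest, with ranges over the libraries of 1.78 to 2.33 and 1.82 to 2.22. The presynaptic genes bsnb and syt1a, which encode bassoon and the calcium sensor of vesicle release, had mean log2 ratios of 1.62 and 1.41. Chromatin and RNA regulators in the same 25 highest genes were gse1, smarcc2, kdm6bb and rbfox2, at 1.46 to 1.66, with rbfox2 at 433, 569 and 372 CPM against 132 to 188 CPM. The other 6 were sox4a (1 of 2 features listed under that symbol), sept3, rab6ba, ywhag1, ptpn5 and 1 gene with no descriptive name, at 1.41 to 1.60.

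The 12 genes furthest below the other barcodes included genes of myelin, glia and immune cells. epd, which encodes the secreted brain protein ependymin, gave 0, 2 and 6 UMIs, or at most 248 CPM, against 2425 to 2659 CPM elsewhere. Myelin genes plp1b (3, 0 and 21 UMIs) and mbpa (7, 1 and 6 UMIs) stood at mean log2 ratios of -3.27 and -3.25, and 13 of the 21 Zn15 plp1b UMIs came from the exorh barcode. cd74a, the invariant chain of MHC class II, gave 4, 0 and 2 UMIs, and the glial gap junction gene cx43 gave 0, 2 and 2. Also in the 12 lowest were elovl1b, cd82a, zfhx4, atp1b4, cd59, stambpl1 and tspan2a, at -3.60 to -2.76. Of these, zfhx4, a zinc finger homeobox gene, was as far below the slc17a6 barcodes (-3.72) and the GABA barcodes (-3.63). Where a gene had no UMI in a library its ratio was set at the floor, so the difference is at least that large.

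**Figure D2:**
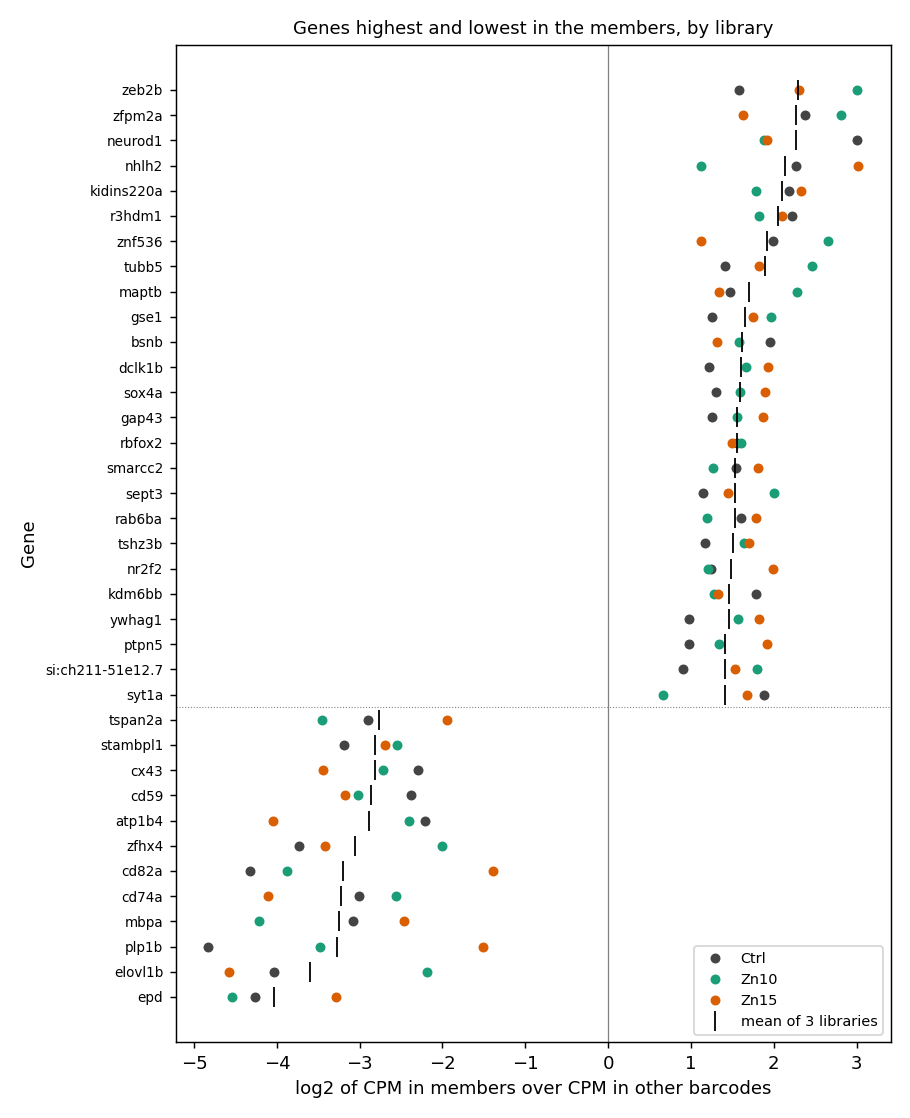
log2 ratio of CPM in the members over CPM in the other barcodes (horizontal axis) for the 25 highest and 12 lowest genes outside the selection, 1 point per library and a bar at the mean of the 3, with a gene at 0 set at 3 UMIs. All points of the 25 genes lie above 0 and all points of the 12 genes below it.

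By gene list, immature and general neuronal genes stood above the rest of the brain, and heat shock and immediate early genes below it. Of 9 immature neuron genes compared, 4 were at least 2-fold higher (elavl3, nhlh2, tubb5 and sox4a) and none lower, with a median log2 ratio of 0.89 beside the 0.24 of all genes compared. elavl3, an RNA-binding protein gene of newborn neurons, gave 87, 87 and 126 UMIs, or 3769, 4948 and 5214 CPM against 1710 to 2038 CPM. Of 11 general neuronal genes 6 were higher, elavl3, syt1a, stmn2a, sv2a, snap25b and gap43 (median 1.1). Of 10 vesicle release genes 4 were higher (median 0.83), and of 6 postsynaptic genes none was past 2-fold (median 0.43). Of 15 heat shock genes compared 8 were lower and none higher (median -1.05), and of 9 immediate early genes 5 were lower, fosab and egr1 among them (median -1.05). Ribosomal protein genes stood near the other barcodes, with 22 compared, none past 2-fold and a median of 0.14.

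Set beside the neurons with a transmitter class, the members had more transcripts of immature neurons and of ribosomal proteins, and fewer of the vesicle machinery. The immature neuron list summed to 10353, 15241 and 14277 CPM in the members, to 4756 to 5549 CPM in the slc17a6 barcodes and to 4588 to 6733 CPM in the GABA barcodes. The ribosomal protein list summed to 18886, 17232 and 22720 CPM in the members, against 6454 to 7814 CPM and 5751 to 6443 CPM. The vesicle release list summed to 11349, 10805 and 8318 CPM, against 14068 to 16510 CPM and 15382 to 17664 CPM. In each of these lists the values of the members did not overlap those of either class in any library. That was not particular to them. It also held for the neuropeptide, glutamate receptor, immediate early, midbrain, habenula, and thalamus and hypothalamus lists, all lower in the members. The telencephalic and pallial list and the cell cycle list were separate too, both higher in the members. The cell cycle list summed to 433, 682 and 704 CPM in the members (10, 12 and 17 UMIs). It came to 76.6 to 188 CPM in the slc17a6 barcodes and 114 to 168 CPM in the GABA barcodes. The postsynaptic list overlapped both classes, and no share over all lists is given. The general neuronal list came to 13819 to 15247 CPM in the members and 14420 to 17475 CPM in the slc17a6 barcodes, which overlap, and to 16067 to 17085 CPM in the GABA barcodes, which lie above the members. The slc17a6 and GABA barcodes were deeper, with medians of 340 to 478 and 394 to 505 UMIs. The part of depth in these levels was not tested. The members were also selected for few UMIs of the slc17a6 and GABA genes, and these classes for more of them. The part of that selection in the differences here, and in the ratios of single genes to the slc17a6 barcodes below, was not tested.

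Single genes differed in how far they stood from the slc17a6 barcodes. The mean log2 ratio of members over slc17a6 barcodes was 2.77 for tubb5, 2.22 for sox4a and 2.54 for insm1a, a zinc finger factor of neuronal progenitors. It was 3.40 for the Notch ligand gene dla. snap25a, of the vesicle fusion complex, stood at -1.18, but syt1a at -0.18, rab6ba at 0.03 and bsnb at 0.54. Of the cell cycle genes, hmgb2a gave 5, 9 and 6 UMIs and mki67 0, 0 and 4, so few members carried transcripts of either.

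Within the members, no barcode held UMIs of both neurod2 and a T-box gene (0 of 53 with neurod2). The T-box genes did meet the neurod6 genes: eomesa shared 4 members with neurod6a and 5 with neurod6b, and tbr1b shared 2 and 6. eomesa and tbr1b met in 8 members and neurod6a and neurod6b in 6, whereas neurod2 met each neurod6 gene once. Because 2 markers were required and most were seen as 1 UMI, these counts depend on the selection and the depth. The part of each was not tested, and the counts do not by themselves show separate kinds of cell.

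The neurod2 members carried more zic1, insm1a, neurod1 and etv1 than the rest. Summed over libraries, zic1 gave 18 UMIs in the 53 neurod2 members (1263 CPM, interval 749 to 1996) and 25 UMIs in the other 152 (494 CPM, 319.8 to 729.6). By library those 18 UMIs were 0, 8 and 10, so the excess was not seen in Ctrl. insm1a gave 5, 3 and 14 UMIs in the neurod2 members, 1544 CPM (967 to 2337) against 356 CPM (211 to 562) in the others. neurod1 gave 11, 3 and 8 UMIs, 1544 CPM (967 to 2337) against 573 CPM (384 to 823). etv1, an ETS factor of granule cells in the mouse, gave 11, 3 and 3 UMIs in them, or 1193 CPM, beside 430.2 CPM in the eomesa or tbr1b members and 325 CPM in the neurod6 members. foxg1a and emx3 had no UMI in any neurod2 member, at a floor of 211 CPM. insm1a was among the genes that ranked highest with neurod2 in these same barcodes, and its interval makes no allowance for that choice.

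The eomesa or tbr1b members carried more elavl3, tubb5 and znf536 than the neurod2 members. elavl3 gave 147 UMIs there (40, 41 and 66 by library), or 6324 CPM, against 2947 CPM with neurod2 and 4082 CPM with neurod6a or neurod6b. tubb5 stood at 2237 CPM against 912 and 1302 CPM. Of the 7 emx3 UMIs 6 lay in these members, in all 3 libraries (258 CPM). Against 0 UMIs in the smaller neurod2 subset, that was too few to show a difference. nr2f1a, a nuclear receptor of forebrain patterning, gave 3, 4 and 5 UMIs here and 0, 0 and 1 in the neurod2 members. znf536 gave 7, 7 and 8 UMIs here and 2, 0 and 0 there. In the eomesa members sox11a, a factor of newborn neurons, reached 2041 CPM beside 719 CPM in members without eomesa, and dclk1b reached 986 CPM in the tbr1b members beside 256 CPM without tbr1b. Each led the ranking of genes with its marker in these same barcodes, and no allowance was made for that choice.

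The neurod6 members carried more syt1a and stmn2a. syt1a gave 21, 11 and 13 UMIs in them, or 1331 CPM, against 645 CPM in the eomesa or tbr1b members and 491 CPM in the neurod2 members. stmn2a, a growth-associated tubulin binder, reached 1219 CPM in the neurod6b members and 459.8 CPM in members without neurod6b. b4galt6, a glycosyltransferase gene, gave 13 UMIs from 12 neurod6b barcodes in all 3 libraries and 2 UMIs elsewhere. stmn2a and b4galt6 were likewise among the genes that ranked highest with neurod6b in these same barcodes. bhlhe22 gave 5, 3 and 5 UMIs by library in the neurod6 members (385 CPM). It gave 2 UMIs in each of the other, smaller subsets, or 140 CPM with neurod2 and 86.0 CPM with eomesa or tbr1b. The difference from the neurod2 members was within counting error. foxg1a stood at 207 CPM there and 215 CPM in the eomesa or tbr1b members. ndrg1a and foxp4, which also ranked high with neurod6a, came almost wholly from 1 barcode each (22 of 23 and 14 of 14 UMIs).

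**Figure D3:**
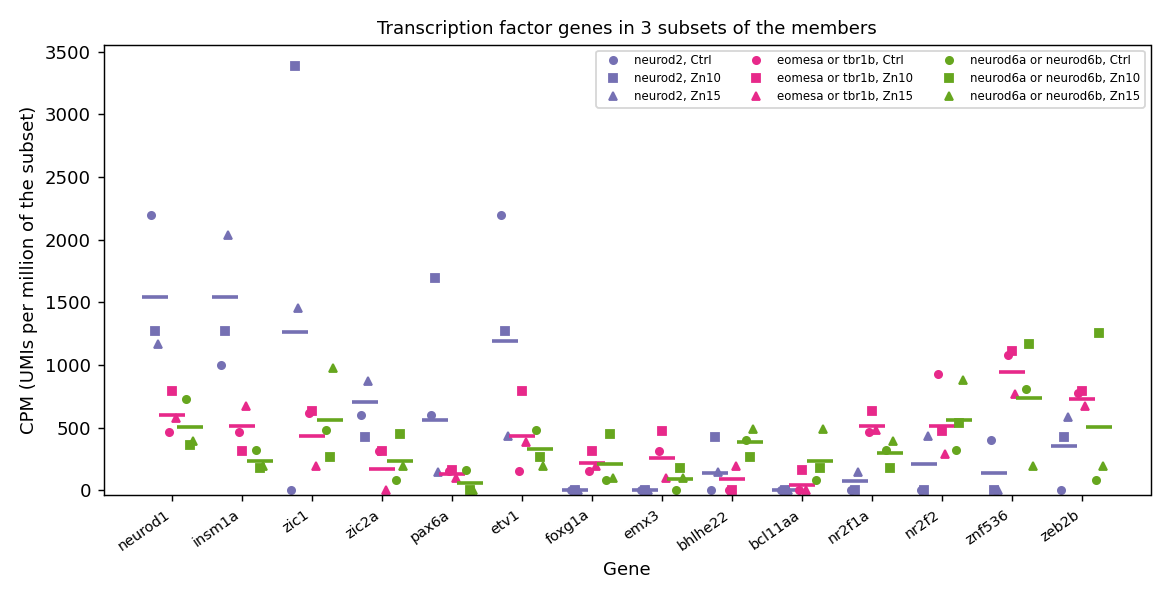
CPM (vertical axis) of 14 transcription factor genes in the members with neurod2, with eomesa or tbr1b, and with neurod6a or neurod6b, with 1 marker shape per library and a bar for the 3 libraries summed. neurod1, insm1a and etv1 are highest with neurod2, where foxg1a, emx3 and bcl11aa are at 0, and bhlhe22 is highest with neurod6a or neurod6b; a member with genes of more than 1 subset is counted in each.

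Barcodes outside the members gave a small check on this division, chosen after the data were seen. Among barcodes with exactly 1 of the 6 markers, 25 had neurod2 alone, and they held 8 insm1a UMIs (1215 CPM). foxg1a and emx3 gave 0 to 2 UMIs in each group with 1 of the markers other than zbtb18, too few to compare. insm1a gave 4 UMIs in the 37 with eomesa alone (399 CPM), 5 in the 25 with tbr1b alone (670 CPM), 2 in the 38 with neurod6b alone (164 CPM) and 0 in the 22 with neurod6a alone. The insm1a levels with neurod2 alone and with tbr1b alone were within counting error of each other. zic1 gave 4 UMIs with neurod2 alone (607 CPM), within the counting error of the 3 UMIs with eomesa alone (299 CPM). The 2521 barcodes with zbtb18 alone had 963 CPM of insm1a and 781 CPM of zic1, so neither gene set the barcodes with neurod2 alone apart from these.

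With the selection as given, the members' shares of the libraries lay within each other's intervals. Some stricter selections, but not all, gave Zn15 a larger share than Ctrl. The members were 1.75% of barcodes with at least 100 genes in Ctrl, with an interval of 1.39% to 2.17%. In Zn10 they were 2.03% (1.51% to 2.67%), and in Zn15 1.80% (1.41% to 2.25%). The share in Zn10 was 1.16 times that in Ctrl (0.800 to 1.67) and the share in Zn15 1.03 times (0.739 to 1.42), and both comparisons use the same Ctrl library. Differences up to the interval bounds were not detectable at these counts. The ratio moved with depth: thinned to 200 UMIs per barcode, which left out 1090, 469 and 761 shallower barcodes, the shares were 0.791%, 1.06% and 1.31%, and Zn15 stood at 1.66 times Ctrl (1.01 to 2.76). With at least 3 markers Zn15 stood at 4.87 times Ctrl (1.34 to 26.6), from 13 against 3 barcodes, and with the 5 markers other than zbtb18 at 2.81 times (1.03 to 8.84), from 15 against 6. With at least 200 genes per barcode it stood at 1.43 times (0.812 to 2.56), an interval that holds 1. With no UMI of the excluding genes allowed, Zn15 stood at 0.945 times Ctrl (0.655 to 1.36), from 58 against 69 barcodes. zbtb18 itself was found in 20.2% of all Ctrl barcodes, 25.2% in Zn10 and 28.6% in Zn15, and its part in the members' share was not tested.

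The makeup of the members differed between libraries by a few barcodes. neurod2 was carried by 20 of 81 members in Ctrl, 9 of 50 in Zn10 and 24 of 74 in Zn15 (24.7%, 18.0% and 32.4%). eomesa or tbr1b was carried by 22, 19 and 31 (27.2%, 38.0% and 41.9%, intervals 17.9% to 38.2%, 24.7% to 52.8% and 30.5% to 53.9%). neurod6a or neurod6b was carried by 41, 27 and 28 (50.6%, 54.0% and 37.8%). The intervals of the 3 libraries overlapped for each subset. neurod6a, with or without neurod6b, was seen in 18, 14 and 7 members, or 22.2%, 28.0% and 9.46%.

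Few genes had enough counts to compare levels between libraries within the members. Ratios were centred on the median gene, which before centring stood at 0.04 (Zn10 over Ctrl), -0.05 (Zn15 over Ctrl) and -0.12 log2 (Zn15 over Zn10). Of 144 genes with at least 30 UMIs over Zn10 and Ctrl, 9 were at least 2-fold higher in Zn10 (6.25%) and 13 lower (9.03%). Of 179 over Zn15 and Ctrl, 15 were higher in Zn15 (8.38%) and 13 lower (7.26%). Of 148 over Zn15 and Zn10, 9 were higher in Zn15 (6.08%) and 8 lower (5.41%). In the other barcodes of the libraries 16 of 22, 23 of 27 and 14 of 17 of these genes lay on the same side. The same share over all genes compared is not given, so whether these counts are unusual cannot be said. The genes past 2-fold rest on 1 library per treatment, and a 2-fold ratio at 30 UMIs lies close to counting error. The interval lay wholly beyond 1.5-fold for 7, 8 and 3 genes.

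elavl1b, which encodes an RNA-binding protein of the Hu family, was higher in both zinc libraries. The members of Ctrl, Zn10 and Zn15 held 9, 24 and 30 of its UMIs (389.8, 1365 and 1242 CPM), spread over 8, 17 and 25 members. The centred log2 ratio was 1.77 in Zn10 (0.61 to 3.06) and 1.72 in Zn15 (0.61 to 2.98), against 0.52 and 0.28 in the other barcodes. Each of the subsets with neurod2, with eomesa or tbr1b, and with neurod6a or neurod6b had its lowest elavl1b level in Ctrl. Among members with at least 200 genes the ratios were smaller, 1 in Zn10 and 0.75 in Zn15. tubb5 gave 20, 44 and 33 UMIs, with a log2 ratio of 1.49 in Zn10 (0.70 to 2.33) and of 0.71 in Zn15 (-0.14 to 1.58). The Zn10 level was the highest of the 3 in each subset.

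nell2b, which encodes a secreted glycoprotein of neurons, was lower in both zinc libraries. It gave 41 UMIs in 17 Ctrl members, 6 in 5 Zn10 members and 11 in 7 Zn15 members, or 1776, 341 and 455 CPM. The log2 ratio was -2.42 in Zn10 (-3.95 to -1.18) and -1.91 in Zn15 (-3.02 to -0.93), whereas the other barcodes stood at 0.18 and -0.33. Without the Ctrl barcode with the most nell2b UMIs (8) the ratios were -2.14 and -1.64. In the members with neurod6a or neurod6b, whose share was lowest in Zn15, nell2b stood at 2176, 448 and 1076 CPM. nucks1a, which encodes a chromatin-associated phosphoprotein, gave 63, 16 and 18 UMIs, with log2 ratios of -1.63 and -1.82. That difference ran through the libraries, since the other barcodes stood at -1.34 and -1.43, and among members with at least 200 genes the ratios were -0.98 and -0.96, inside 2-fold. The feature listed under the mitochondrial genome's accession had a Zn10 ratio of -1.68, beside -1.43 in the other barcodes, where genes with mitochondrial symbols stood at 2036, 798 and 1995 CPM in Ctrl, Zn10 and Zn15. The part of RNA quality in these ratios was not tested.

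Heat shock genes stood lower in the members of the zinc libraries. The list summed to 20922 CPM in Ctrl, with an interval of 19097 to 22874. It summed to 13364 CPM (11710.2 to 15187) in Zn10 and to 10553 CPM (9297 to 11931) in Zn15. These were 0.639 and 0.504 times Ctrl, beside 0.777 and 0.739 times in the other barcodes. The neuron classes were lower in the zinc libraries too, at 27738, 20909 and 16842 CPM in the slc17a6 barcodes and 27982, 18938 and 16500.4 CPM in the GABA barcodes, and the difference from them was not tested. Of the genes compared, 3 of 7 were at least 2-fold lower in Zn10 (hsp70.2, hsp90aa1.2 and hsp70l) and 4 of 6 in Zn15 (hsp70.1, hsp70.2, hsp70.3 and hsp70l), and none was higher. hsp70l gave 138, 34 and 21 UMIs, but 40 of the 138 came from 1 barcode. Without that barcode its log2 ratios moved from -1.67 to -1.22 and from -2.73 to -2.28. hsp70.2 gave 53, 17 and 18 UMIs, with log2 ratios of -1.29 and -1.57. The hsp70 genes are near-identical copies, so the split of UMIs among them is uncertain. hsp90ab1, a constitutive HSP90 gene, went the other way in Zn15, with 43, 37 and 79 UMIs and a log2 ratio of 0.86 (0.31 to 1.43).

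**Figure D4:**
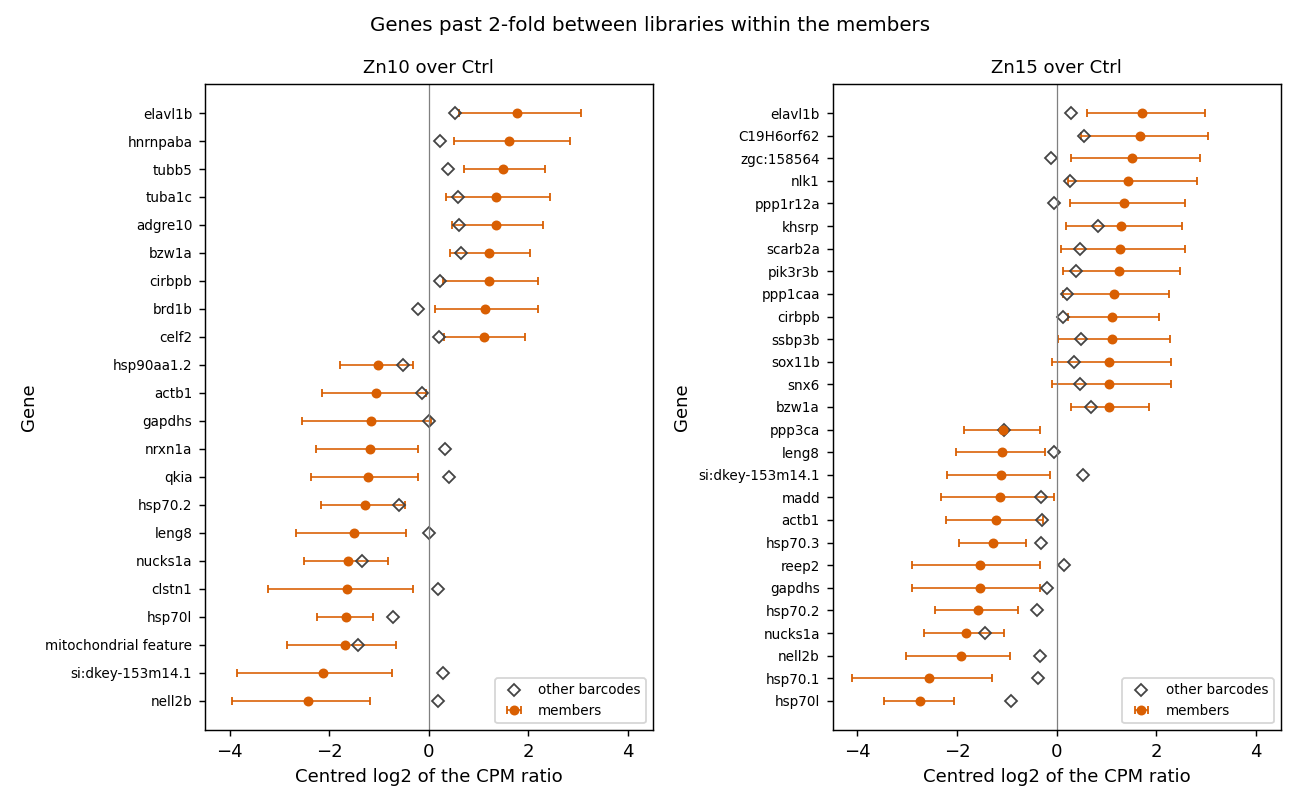
Centred log2 ratio of CPM in Zn10 over Ctrl (left) and Zn15 over Ctrl (right) for the genes past 2-fold within the members, with exact intervals (filled), and for the same genes in the other barcodes (open); exorh, from 1 barcode, is not drawn. nell2b and elavl1b lie further from 0 in the members than in the other barcodes, and nucks1a lies at a similar place in both.

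Summed over the list, immature neuron genes stood higher in the members of both zinc libraries. The list was 1.47 times Ctrl in Zn10 (1.23 to 1.76) and 1.38 times in Zn15 (1.17 to 1.63), beside 1.16 and 1.06 times in the other barcodes. In the GABA barcodes the same list stood at 4588, 6284 and 6733 CPM, also lowest in Ctrl, so the difference was not particular to the members. Past 2-fold were tubb5 alone of 4 genes in Zn10 and sox11b alone of 8 in Zn15 (10, 17 and 21 UMIs), so the sum rested on smaller differences and on tubb5. Over the same libraries the eomesa or tbr1b members, in which elavl3 and tubb5 were highest, made up a larger share of the zinc members, and the part of that share was not tested. Not every gene of the list followed the sum in Zn10. nhlh2 gave 15, 7 and 30 UMIs (650, 398 and 1242 CPM) and sox11a 24, 12 and 32 UMIs (1040, 682 and 1324 CPM), both lowest in Zn10. The log2 ratio of nhlh2 in Zn15 over Zn10 was 1.76 (0.54 to 3.19), an interval not wholly beyond 1.5-fold, and the other barcodes stood at -0.12.

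Summed synaptic lists were lower in the members of Zn15 than in those of Ctrl. The postsynaptic list was 0.592 times Ctrl in Zn15 (0.460 to 0.759) and 0.967 times in Zn10 (0.762 to 1.22), and the vesicle release list 0.733 times (0.607 to 0.884) and 0.952 times (0.786 to 1.15). The other barcodes stood lower in Zn15 too, at 0.784 and 0.750 times. In Ctrl and Zn15 the postsynaptic list stood at 6912 and 5948 CPM in the slc17a6 barcodes and 7371 and 7006 CPM in the GABA barcodes. The vesicle release list stood at 14068 and 14463 CPM in the slc17a6 barcodes, so not lower in Zn15, and at 17115 and 15382 CPM in the GABA barcodes. The difference of the members from these classes was not tested. Few single genes could be compared: none of 3 postsynaptic and 4 vesicle genes in Zn10, and none of 2 and 4 in Zn15, was past 2-fold. The adhesion and guidance list stood at 0.725 times Ctrl in Zn15 (0.562 to 0.932) in the members. nrxn1a, a presynaptic adhesion gene and the only one of that list with enough counts, gave 35, 12 and 28 UMIs. It was lower in Zn10 (log2 ratio -1.19, -2.27 to -0.21), where the other barcodes stood at 0.33. Ribosomal protein genes were 1.2 times Ctrl in Zn15 (1.06 to 1.37), close to the other barcodes (1.16), and 0.912 times in Zn10 (0.785 to 1.06).

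Genes of zinc handling were scarce in the members. Of 22 metallothionein and zinc transporter genes measured, 6 had a UMI and their sum was 14, 9 and 21 UMIs (606, 512 and 869 CPM). mt2, a metallothionein gene, made up 11, 6 and 19 of them, from 8, 4 and 9 members. Its log2 ratio in Zn15 was 0.77 (-0.37 to 1.99), an interval that holds 0, and was 0.24 without the barcode with 6 of the UMIs. In the other barcodes mt2 stood at -1.11 in that comparison. The efflux transporter gene slc30a1a gave 2, 1 and 0 UMIs, so no difference in it was detectable at this depth.

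**Figure D5:**
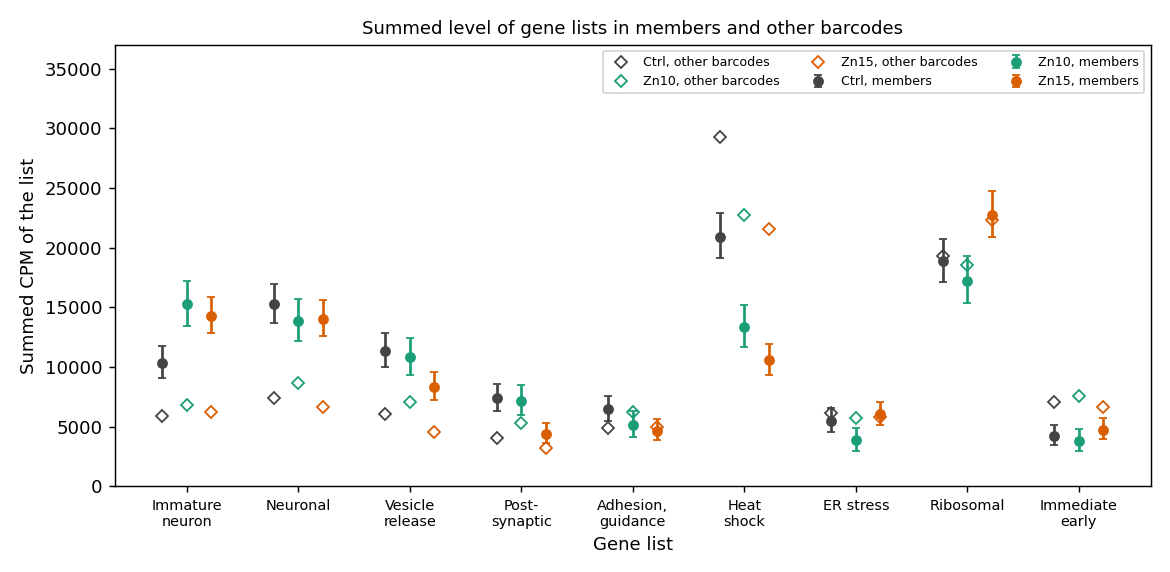
Summed CPM (vertical axis) of 9 gene lists in the members (filled, with exact Poisson intervals) and in the other barcodes (open) of each library. In the members the immature neuron list is lowest in Ctrl and the heat shock list highest in Ctrl, and the postsynaptic list is lowest in Zn15.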

How the data were processed

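Zebrafish brain droplet libraries, 1 per treatment (Ctrl, Zn10, Zn15), were analysed from the deposited matrices. The authors deposited raw UMI counts per gene and barcode, made with Cell Ranger 4.0.0 per the file headers, with fastp, Seurat and the GRCz11 build listed in the submitters' processing notes. Other alignment settings and any removal of doublets are not stated there, and whether cells or nuclei were loaded could not be settled from the counts. Reads from near-identical genes can be split or lost in such counting.

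Barcodes with at least 100 genes were kept, counts were summed per library over the members and over comparison classes, and sums were scaled to CPM. Other barcodes are all kept barcodes outside the members. The slc17a6 and GABA classes needed at least 2 UMIs of their genes, and the oligodendrocyte and microglia classes at least 4 of their lists. Genes with at least 30 UMIs over both sides were compared, and past 2-fold means a log2 ratio of at least 1. Beside the other barcodes, a gene also needed at least 5 UMIs seen, or at least 5 expected, in the members of each library. Between libraries ratios were centred on the median gene. No cell was clustered and no test was made across cells. Python 3.11.15, numpy 2.4.6, pandas 2.3.3, scipy 1.17.1 and matplotlib 3.10.9 were used, and the scripts were tested on simulated data.

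Named genes were the 11 that chose the members, the 25 highest and 12 lowest mean ratios beside other barcodes (at least 5 UMIs seen or expected in the members of each library), and up to 10 each side between libraries whose interval lay beyond 1.5-fold with no barcode over 20% of the UMIs. Up to 4 genes with the most UMIs were added per list, and other genes were named after their values were seen. The members and gene lists were chosen with earlier results of these data known. Of 32057 features, 28988 IDs were in the gene name table, from which malat1 was identified.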

Additional observations from a re-analysis of the deposited data

How the results depend on the processing

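The share of members in Zn10 over Ctrl was 3.14 with at least 3 of the 6 markers (5 against 3 barcodes) and 1.88 with the 5 markers other than zbtb18. Zn15 over Ctrl was 1.43 with at least 200 genes per barcode, 4.87 with 3 markers (13 against 3), 2.81 without zbtb18 (15 against 6) and 1.66 when thinned. Zn15 over Zn10 was 1.55 with 3 markers and 1.49 without zbtb18, where the value as reported was below 1. Genes past 2-fold in Zn10 over Ctrl (22 as reported) numbered 76 with a minimum of 15 UMIs, 1 with 100 UMIs, 0 with 3 markers and 7 with intervals wholly beyond 1.5-fold. In Zn15 over Ctrl (28) they numbered 103, 1, 0 and 8, and 11 with at least 200 genes per barcode. In Zn15 over Zn10 (17) they numbered 78, 1, 1 and 3, and 7 with 200 genes. Beside the other barcodes, 43 genes were higher and 42 lower with 200 genes, and 2 and 3 with 3 markers. Requiring 200 genes or 3 markers left fewer barcodes and fewer genes to compare, and a minimum of 100 UMIs fewer genes. Leaving out the 5 barcodes with UMIs of other classes, or the Ctrl barcode with most hsp70l UMIs, was chosen after seeing the data and moved none of these counts past 1.5 times. Of the single named gene values under the alternatives, 39 stayed within their interval and 1 moved, that of nucks1a. No paired analysis was possible because each treatment had 1 library and the labels carry no replicate numbers. Depth limits all of this: most markers were seen as 1 UMI, so barcodes of the same kind can fall outside the members.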
